A study of Homo sapiens with 4 samples.

Results

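Expression of 10 genes for the synthesis of serine, glycine, proline, asparagine and alanine was examined in K562 (human erythroleukemia) cells after 4 h with AC-1041, a morpholine-substituted trifluorophthalimide related to thalidomide. The genes were PHGDH, PSAT1, PSPH, SHMT1, SHMT2, MTHFD2, ALDH18A1, PYCR1, GPT2 and ASNS. They were taken by name, as amino acid and one-carbon enzymes known to be controlled by the transcription factor ATF4. The choice was made with earlier results of these data known, so the direction of the set is no independent evidence. Probes of these genes were found by the gene name or the transcript accession in the array files. The genes made up 10 of the 14267 genes on the array. Each had 1 probe, and 9 of them could be tested among 8836 genes. Treated and control RNA competed on each of 4 two-colour Agilent arrays, and each array thereby gave 1 ratio of treated over control. On arrays 1 and 2 the treated RNA was labelled with Cy5, and on arrays 3 and 4 with Cy3. The labels call the control cells untreated, whereas the methods name a DMSO control. The dose is given in the methods and not in the labels. The p-values of the fitted ratios measure only the spread between arrays of the same dye orientation, unless stated otherwise. That spread may be technical, because which RNA preparation went on which array is not given in the sources used here.

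Cells make serine from the glycolytic intermediate 3-phosphoglycerate in a short chain of reactions, and serine in turn gives glycine and the one-carbon units carried by folate that purine and thymidylate synthesis use. Proline is made from glutamate through pyrroline-5-carboxylate, asparagine from aspartate and glutamine, and alanine from pyruvate and glutamate. Phosphorylation of the initiation factor eIF2alpha, by kinases that sense unfolded proteins in the endoplasmic reticulum, missing amino acids, missing heme or double-stranded RNA, lowers general translation and raises translation of ATF4, which then activates many genes of these routes.

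Arrays of the same dye orientation resembled each other. The correlation of the log2 ratios across 8852 probes was 0.81 between arrays 1 and 2 and 0.94 between arrays 3 and 4, but lay between -0.29 and -0.12 for arrays of different orientation. The fit held a dye term, the ratio with the treated RNA in Cy5 minus that with the treated RNA in Cy3, which passed an adjusted p of 0.05 for 58.2% of the genes tested. Negative control spots were more variable on arrays 1 and 2, so that the orientation of the dyes and the quality of the arrays cannot be told apart. In the control channel, 9 of the 10 K562 markers on the array were well above background on all 4 arrays. Among the markers of other cell types, those that were so as well included CD79A and EPCAM, and MS4A1, CSF1R, ALB and COL1A1 were so on no array.

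PHGDH, PSAT1, PSPH, SHMT2, MTHFD2 and GPT2 were higher in treated cells, while SHMT1, ALDH18A1 and PYCR1 did not pass the test and ASNS was not well above background. Thus 6 of the 9 tested genes rose at an adjusted p under 0.05 (limma, Benjamini-Hochberg over all probes tested), beside 24.3% of all genes tested. None of the 9 fell by this test, beside 13.0% of all genes, and at an unadjusted p under 0.05 the counts were 6 higher and 1 lower, beside 28.5% and 18.3% of all genes. Their median log2 ratio was 0.42, and that of all genes was 0.02. Calls in either direction made up 37.3% of all genes. The 6 genes that rose were above 0 on all 4 arrays, out of 8 measured on all 4, and 0 of the 8 were below 0 on all 4. Of all genes measured on 4 arrays, 16.7% were above 0 on each, 14.4% were so and also passed the test, and 9.19% were below 0 on each. These calls rest on the dye term. When it was left out, 0 of the 9 genes passed, beside 0.583% of all genes in the higher direction and 0.0448% in the lower, and 5 of the 9 genes were higher at an unadjusted p under 0.05, beside 10.4% of all genes. An exact two-sided sign-flip permutation test over 4 arrays cannot give a p below 0.125, the value that these 6 genes reached.

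**Figure D1:**
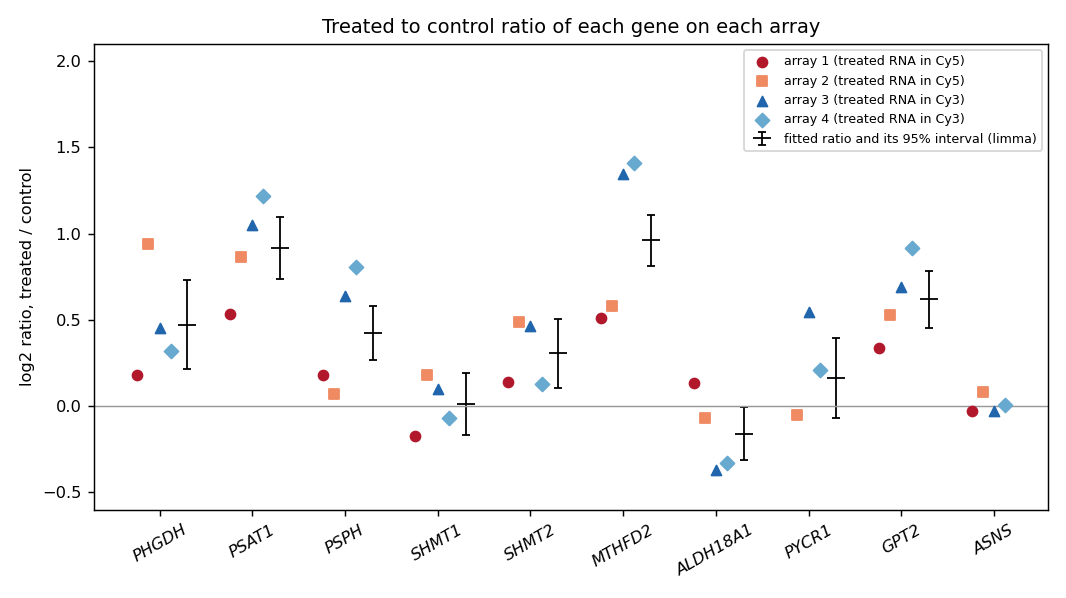
Log2 ratio of treated over control cells (vertical axis) of each of the 10 genes (horizontal axis) on each of the 4 arrays, with the fitted ratio and its 95% interval as a bar beside the points. The 6 genes that rose lay above 0 on every array, SHMT1 and ASNS lay around 0, and ALDH18A1 was below 0 on arrays 2, 3 and 4.

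The chain from 3-phosphoglycerate to serine was described first. PHGDH, which oxidizes 3-phosphoglycerate in the committing step, had log2 ratios of 0.18, 0.94, 0.45 and 0.32 on arrays 1 to 4. All were above 0, with array 2 the highest and well apart from the other three. The fitted log2 ratio was 0.47 ± 0.33 (SD, n = 4), a 1.39-fold higher level in treated cells (95% interval of the log2 ratio 0.21 to 0.73, limma adjusted p = 0.012). Its dye difference was 0.17 (adjusted p = 0.53). Without array 3 the adjusted p was 0.089, without array 4 it was 0.071, and without array 2 the log2 ratio was 0.28. The probe lies at chr1:120087052-120087111 of hg18, on the plus strand.

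PSAT1 is the aminotransferase that passes the amino group of glutamate to the product of PHGDH. Its log2 ratios were 0.54, 0.87, 1.05 and 1.22 on arrays 1 to 4. Both arrays with the treated RNA in Cy3 were above both with it in Cy5. The fitted value was 0.92 ± 0.29 (SD, n = 4), or 1.89-fold (95% interval of the log2 ratio 0.74 to 1.1, limma adjusted p = 8.5e-05), and 98.1% of the genes tested had a lower ratio. The dye difference was -0.43 (adjusted p = 0.040). In the control channel the normalized log2 intensity of PSAT1 lay between 13.83 and 14.15, and that of the treated RNA between 14.36 and 15.34, so the channels did not overlap. The probe lies at chr9:80134598-80134657 (hg18, plus strand).

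Upstream sequences are shown for PSAT1 and MTHFD2, the genes of the set with the highest ratios. RefSeq promoters (GRCh38.p14) were found for 6 of the 10 genes, and PSPH, SHMT2, PYCR1 and GPT2 had no entry in the table used. The 250 bases before each start were searched on both strands for TGATGNAA, a form of the composite element that C/EBP and ATF proteins bind, and for CCAAT, the motif of the factor NF-Y. The latter was chosen after the sequences had been seen. TGATGNAA was found upstream of neither PSAT1 nor MTHFD2. The 250 bases before the start of PSAT1 (chr9:78296875-78297124, plus strand) held CCAAT 3 times, in capitals below, and 2.93% of 35116 promoters held it at least as often.
PSAT1: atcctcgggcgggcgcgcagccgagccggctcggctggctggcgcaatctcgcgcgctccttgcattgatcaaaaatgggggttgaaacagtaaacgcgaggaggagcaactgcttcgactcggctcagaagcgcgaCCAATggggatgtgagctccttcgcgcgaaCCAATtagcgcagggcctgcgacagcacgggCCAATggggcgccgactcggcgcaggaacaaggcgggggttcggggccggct
The 250 bases before the start of MTHFD2 (chr2:74198365-74198614, plus strand), given again with CCAAT in capitals, held it 2 times, as 9.53% of all promoters did at least.
MTHFD2: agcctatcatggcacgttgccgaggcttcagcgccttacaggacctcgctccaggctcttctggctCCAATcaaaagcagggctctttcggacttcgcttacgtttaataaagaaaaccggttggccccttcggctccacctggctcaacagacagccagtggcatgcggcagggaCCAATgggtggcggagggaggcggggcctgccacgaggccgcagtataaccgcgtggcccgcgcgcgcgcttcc
SHMT1, whose ratio did not pass the test, also held CCAAT 2 times, PHGDH held it 1 time (as 32.0% of promoters did at least), and ALDH18A1 and ASNS did not hold it. CCAAT was thus present upstream of genes that rose and of a gene that did not pass the test.

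PSPH removes the phosphate in the last step of serine synthesis. Its log2 ratios were 0.18, 0.07, 0.64 and 0.80 on arrays 1 to 4. The arrays with the treated RNA in Cy3 were far above the other two, and array 2 was close to 0. The fitted value was 0.42 ± 0.35 (SD, n = 4), or 1.34-fold (95% interval of the log2 ratio 0.27 to 0.58, limma adjusted p = 0.0018). The dye difference was -0.59 (adjusted p = 0.0059). On the arrays with the treated RNA in Cy5 alone PSPH did not pass the test, with a log2 ratio of 0.13 (adjusted p = 0.42). The probe lies at chr7:56046280-56046339 (hg18, minus strand). All 3 enzymes of the chain thus had a higher level in treated cells on every array.

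Serine hydroxymethyltransferases draw one-carbon units from serine. SHMT1, the cytosolic form, had log2 ratios of -0.17, 0.18, 0.10 and -0.07. They fell on both sides of 0 within each dye orientation. Its fitted value was 0.01 ± 0.16 (SD, n = 4, limma adjusted p = 0.92), with a 95% interval from -0.17 to 0.19. SHMT2, the mitochondrial form, had log2 ratios of 0.14, 0.49, 0.46 and 0.13. Its fitted value was 0.31 ± 0.20 (SD, n = 4), or 1.24-fold (95% interval of the log2 ratio 0.11 to 0.50, limma adjusted p = 0.025), and its dye difference was 0.02 (adjusted p = 0.93). The call for SHMT2 was lost with the processed signals of Feature Extraction (adjusted p = 0.087), with the series table of ratios (adjusted p = 0.092), with median centring (adjusted p = 0.063), with marked spots kept (adjusted p = 0.057), and without array 2, 3 or 4.

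SHMT2 was above SHMT1 on every array, by 0.31, 0.31, 0.36 and 0.19 on the log2 scale. The mean difference was 0.29 ± 0.07 (SD, n = 4), and it was alike in both orientations (0.31 with the treated RNA in Cy5, 0.28 with it in Cy3). This was 1 of 6 pairs of related enzymes compared, which were chosen after the values had been seen. Its exact sign-flip permutation p was 0.125, the smallest 4 arrays allow, and 0.25 after adjustment over the 6 pairs. The probes lie at chr17:18177238-18177297 (minus strand) for SHMT1 and at chr12:55914612-55914671 (plus strand) for SHMT2, both of hg18.

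MTHFD2, the mitochondrial methylenetetrahydrofolate dehydrogenase and cyclohydrolase, had the highest ratio of the set. Its log2 ratios were 0.51, 0.58, 1.35 and 1.41 on arrays 1 to 4. Every array was far above 0, but those with the treated RNA in Cy3 stood clearly above the others. The fitted value was 0.96 ± 0.48 (SD, n = 4), or 1.95-fold (95% interval of the log2 ratio 0.81 to 1.11, limma adjusted p = 2.6e-05), and 98.3% of the genes tested had a lower ratio. The dye difference was -0.83 (adjusted p = 0.00087), larger in size than that of 75.5% of genes. The 95% intervals of MTHFD2 and PSAT1 overlapped widely. The normalized log2 intensity lay between 15.21 and 15.68 in the control channel and between 15.72 and 16.85 in the treated one, so that the channels did not overlap. The probe lies at chr2:74295493-74295552 (hg18, plus strand).

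MTHFD2 was compared with its relatives in the same way. MTHFD1, the cytosolic trifunctional enzyme, was below MTHFD2 by 0.05, 0.57, 1.68 and 1.52, which ranged widely with the dye. MTHFD2L, a mitochondrial relative, was below MTHFD2 by 0.74, 0.68, 0.43 and 0.36. The spot of MTHFD2L was well above background on only 2 arrays in the treated and on 1 in the control channel. Both differences were above 0 on 4 of 4 arrays, with an exact sign-flip permutation p of 0.125 and of 0.25 after adjustment over the 6 pairs.

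**Figure D2:**
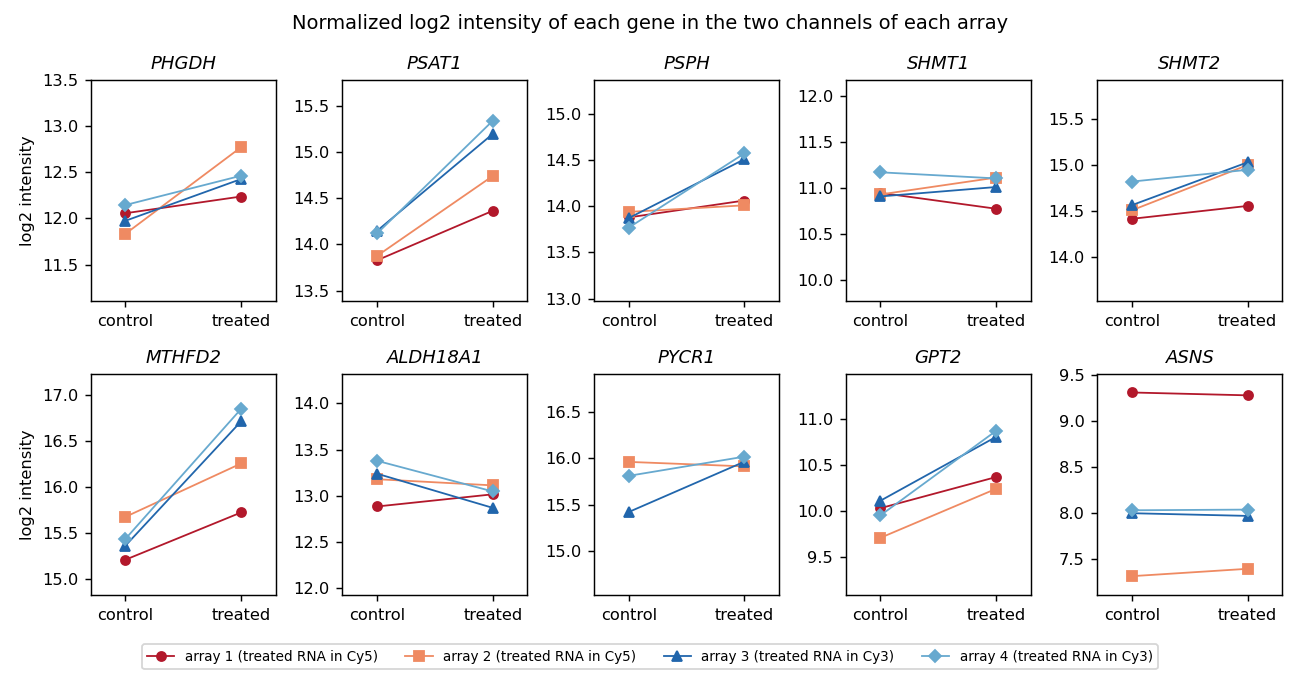
The normalized log2 intensity (vertical axis, with its own range in each panel) of each gene in the control and the treated channel, with a line for each of the 4 arrays. The lines of PSAT1, MTHFD2 and GPT2 rise on all 4 arrays, those of SHMT1 and ASNS are nearly level, and array 1 is missing for PYCR1.

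The proline genes did not pass the test. ALDH18A1 makes pyrroline-5-carboxylate synthase, which starts the route from glutamate. Its log2 ratios were 0.13, -0.07, -0.37 and -0.33 on arrays 1 to 4. The fitted value was -0.16 ± 0.24 (SD, n = 4), with a 95% interval from -0.31 to -0.0037 and a limma adjusted p of 0.10, and its unadjusted p was 0.046. The dye difference was 0.38 (adjusted p = 0.039), so the value near 0 in Cy5 and the lower value in Cy3 differed. Without array 1, ALDH18A1 was lower at a log2 ratio of -0.21 (adjusted p = 0.031). The probe lies at chr10:97356127-97356186 (hg18, minus strand).

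PYCR1 is the mitochondrial reductase that completes proline. Its spot was marked as an outlier on array 1, so that array was left out of its fit, and the other arrays gave log2 ratios of -0.05, 0.55 and 0.21. The only array left with the treated RNA in Cy5 was below 0 and both with it in Cy3 were above. In the fit that single array weighed as much as both others together. The fitted value was 0.16 ± 0.30 (SD, n = 3, limma adjusted p = 0.23), with a 95% interval from -0.07 to 0.39. PYCR1 was above its relative PYCR3 by 0.34, 0.72 and 0.49 on these arrays (exact sign-flip permutation p = 0.25, 0.30 adjusted over the 6 pairs). The probe lies at chr17:77483622-77483681 (hg18, minus strand).

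GPT2, the mitochondrial alanine aminotransferase, had log2 ratios of 0.34, 0.53, 0.69 and 0.92 on arrays 1 to 4. All were above 0, and again the arrays with the treated RNA in Cy3 were the higher ones. The fitted value was 0.62 ± 0.25 (SD, n = 4), or 1.54-fold (95% interval of the log2 ratio 0.45 to 0.79, limma adjusted p = 0.00039). The dye difference was -0.37 (adjusted p = 0.057). Its control channel was well above background on 3 of 4 arrays and its treated channel on 4. GPT, the cytosolic form, was below GPT2 by 0.16, 1.5 and 1.71 on the 3 arrays where both were measured, a difference that again moved with the dye (exact sign-flip permutation p = 0.25, 0.30 adjusted over the 6 pairs). The probe of GPT2 lies at chr16:45522269-45522328 (hg18, plus strand).

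ASNS, asparagine synthetase, could not be assessed. Its spot was not well above background in either channel on any array. The log2 ratios were -0.03, 0.08, -0.03 and 0.01, and these give no fold change. Before any correction the signal of ASNS on array 1 was 808 for treated and 870 for control RNA, and lay between 183 and 230 in both channels of the other arrays. The description of the probe in the array files calls the clone behind it chimeric, and the probe lies at chr7:97376072-97376131 (hg18, minus strand). A low signal of this probe is therefore no measure of the asparagine synthetase transcript. The promoter of ASNS is shown because, of the 7 promoters found for the set, it was the only one with TGATGNAA, which 3.14% of the 35116 promoters held. The match, in capitals, lies 68 bases before the start in this stretch of 128 bases (chr7:97872409-97872536, GRCh38.p14, minus strand).
ASNS: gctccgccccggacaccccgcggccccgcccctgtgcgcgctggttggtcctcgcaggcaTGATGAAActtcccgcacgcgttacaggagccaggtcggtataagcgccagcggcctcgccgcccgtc
A match is a description of the sequence and not of binding.

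The dye term passed an adjusted p of 0.05 for 4 of the 9 tested genes (PSAT1, PSPH, MTHFD2 and ALDH18A1), beside 58.2% of all genes. The median of the 9 tested genes was 0.31 on the arrays with the treated RNA in Cy5 and 0.38 on those with it in Cy3. PHGDH, SHMT2 and SHMT1 had dye differences of 0.17, 0.02 and -0.01. On the arrays with the treated RNA in Cy5 alone, 3 of 8 genes rose (PSAT1, MTHFD2 and GPT2) and 0 fell, beside 16.5% and 17.1% of all genes, and at an unadjusted p under 0.05 the limma counts were 5 and 0. On those with it in Cy3 alone 7 of 9 rose and ALDH18A1 fell, beside 38.3% higher and 31.4% lower among all genes. These fits by orientation were added after the data had been seen.

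**Figure D3:**
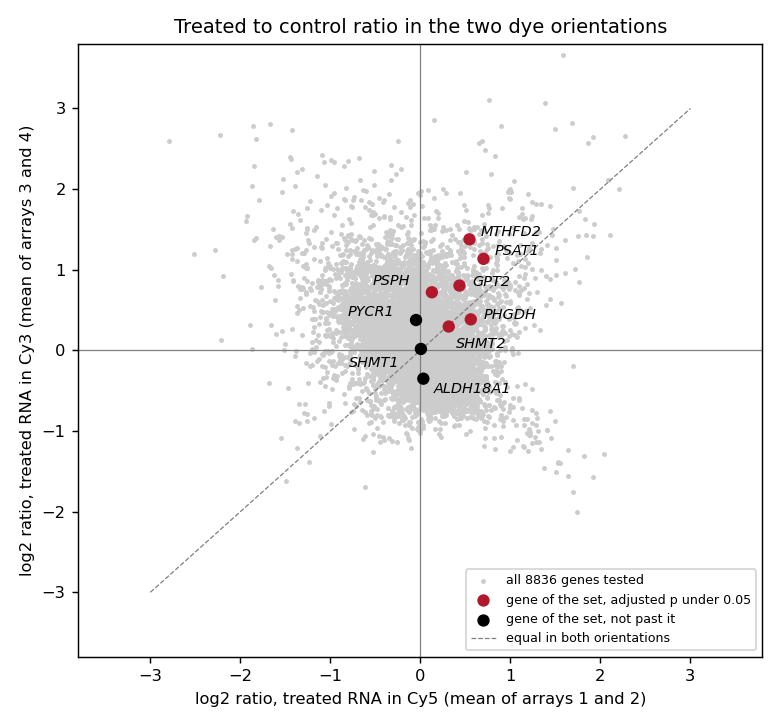
Log2 ratio of treated over control cells with the treated RNA in Cy5 (horizontal axis, mean of arrays 1 and 2) against that with it in Cy3 (vertical axis, mean of arrays 3 and 4), for the 9 tested genes in colour and all 8836 genes in grey. The 6 genes that rose lie above 0 on both axes, with SHMT2 on the line of equal ratios and PHGDH below it.

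The transcript of ATF4 was also higher in treated cells. Whether ATF4 acted on the genes of the set was not tested. ATF4 had log2 ratios of 1.08, 1.0, 0.29 and 0.52, higher on the arrays with the treated RNA in Cy5. Its fitted value was 0.72 ± 0.38 (SD, n = 4, limma adjusted p = 0.00016), and its dye term had an adjusted p of 0.0049. Of 12 tested genes for ATF4 partners and targets and for the kinases and phosphatase subunits that set eIF2alpha phosphorylation, 9 rose and 0 fell (limma, with the same counts at an unadjusted p under 0.05), beside 24.3% and 13.0% of all genes, with a median of 0.70. Without the dye term 3 of the 12 passed, and ATF4 (adjusted p = 0.14) and SESN2 (adjusted p = 0.079) did not. Among the 9, and named after their values were seen, the eIF2alpha kinases EIF2AK3 (-0.05, 0.05, 1.37 and 1.32 on arrays 1 to 4) and EIF2AK4 (-0.20, -0.25, 0.59 and 0.74) were near or below 0 with the treated RNA in Cy5. The list was drawn up with earlier results of these arrays known, so its direction is no independent evidence. DDIT3, the C/EBP factor also called GADD153, had the highest value of 1.64 ± 0.31 (SD, n = 4). It was followed by CEBPG, which pairs with ATF4, at 1.49 ± 0.14, TRIB3, a pseudokinase induced by ATF4, at 1.43 ± 0.33, and SESN2, a leucine sensor upstream of mTORC1, at 1.16 ± 0.51, each with its SD over 4 arrays.

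Of 20 tested genes of serine, glycine and folate one-carbon metabolism, 5 rose and 2 fell, which is near the 24.3% and 13.0% of all genes, and their median log2 ratio was -0.01. With both channels required to be well above background on all arrays, 1 gene of the list rose. Without array 3 the counts were 1 higher and 1 lower, and without array 4 they were 2 and 1. ALDH1L2, the mitochondrial formyltetrahydrofolate dehydrogenase, had log2 ratios of 0.18, 0.35, 0.51 and 0.38 and a fitted value of 0.36 ± 0.14 (SD, n = 4, limma adjusted p = 0.0044). It was well above background on 2 arrays in the treated and on 1 in the control channel. SDSL, a serine dehydratase relative, was at 0.35 ± 0.14 and AMT, of the glycine cleavage system, at 0.28 ± 0.20 (SD), the latter well above background on 2 arrays in each channel. These 3 genes were above 0 on all arrays. MTHFD2L also passed the test at 0.41 ± 0.67 (SD), but its log2 ratios of -0.23, -0.10, 0.92 and 1.05 changed sign with the dye, and it was well above background on 2 arrays in the treated and on 1 in the control channel.

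The spot of MAT2A on array 1 was marked, which left array 2 alone with the treated RNA in Cy5. In the fit, array 2 weighed as much as arrays 3 and 4 together. MAT2A, which makes S-adenosylmethionine from methionine, had log2 ratios of -1.02, -0.54 and -0.84 on arrays 2 to 4. Its fitted value was -0.85 ± 0.24 (SD, n = 3, limma adjusted p = 0.00049), the lowest in the lists. GCSH, also of the glycine cleavage system, was at -0.55 ± 0.78 (SD, n = 4), with log2 ratios of -1.37, -1.05, 0.26 and -0.06. The size of its ratio therefore lay in the arrays with the treated RNA in Cy5.

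Among 8 tested genes of proline and ornithine metabolism 1 rose and 4 fell, beside 24.3% and 13.0% of all genes, with a median of -0.25. ARG2, the mitochondrial arginase, had log2 ratios of 0.51, 0.59, 0.72 and 0.81 and a fitted value of 0.66 ± 0.13 (SD, n = 4, limma adjusted p = 0.00018). OAT, the aminotransferase between ornithine and pyrroline-5-carboxylate, was lower at -0.54 ± 0.17 (SD, n = 3, limma adjusted p = 0.0027), with -0.67, -0.33 and -0.50 on arrays 2 to 4. PYCR3, which reduces pyrroline-5-carboxylate made from ornithine, was at -0.27 ± 0.09 (SD, n = 4) and below 0 on 4 arrays. ODC1, the ornithine decarboxylase of polyamine synthesis, at -0.32 ± 0.44 and ALDH4A1, of proline breakdown, at -0.27 ± 0.46 (SD, n = 3 for both) also passed the test, though both were above 0 on array 2. With median centring the median of the list was -0.10 and 2 genes fell, PYCR3 being at -0.13 (adjusted p = 0.25) and ALDH4A1 at -0.08 (adjusted p = 0.60). Without a filter on dim probes the median was -0.06. When array 2, 3 or 4 was left out, 4 of the 8 genes could be fitted, and the median was -0.03, -0.07 or -0.04. Without array 2 the lower calls were 2, and without array 3 or 4 they were 0 in limma (2 and 1 at an unadjusted p under 0.05).

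Of 15 tested genes for glutamate, glutamine, aspartate, asparagine and alanine, 2 rose and 2 fell, beside 24.3% and 13.0% of all genes. The median of this list was -0.04. Without array 2 there was 1 lower call among 13 genes fitted, and without array 3 or 4 there were 0 lower calls in limma (1 at an unadjusted p under 0.05 in both) and 1 higher call. ASRGL1, which hydrolyses asparagine, was higher at 0.37 ± 0.21 and GOT1, the cytosolic aspartate aminotransferase, at 0.25 ± 0.17 (SD, n = 4 for both), each above 0 on 4 arrays. ADSS2, of AMP synthesis, was at -0.33 ± 0.55 (SD, n = 4), and was above 0 on arrays 3 and 4. GLUL, glutamine synthetase, was at -0.29 ± 1.15 (SD, n = 3), with -1.28, 0.63 and 0.78 on arrays 2 to 4, and its direction was turned to 0.04 when the dye term was left out. Over all 4 lists 17 of 55 tested genes rose and 8 fell, with a median log2 ratio of -0.02. The differences between the 9 genes and these lists were not tested.

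**Figure D4:**
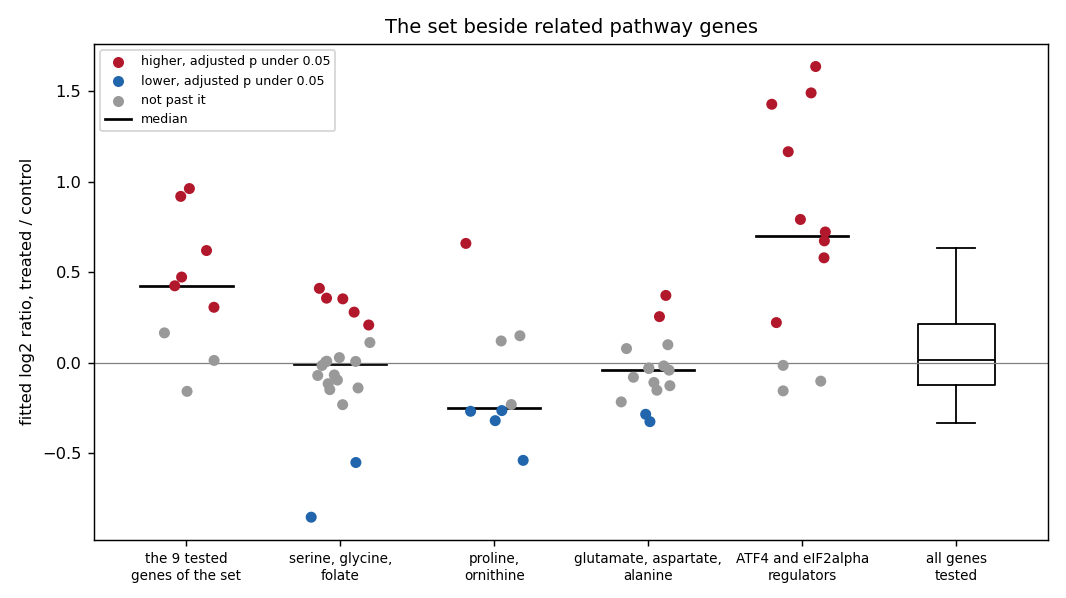
Fitted log2 ratio of treated over control cells (vertical axis) of each tested gene in the set of 9, in 4 lists of related genes and over all genes tested, with medians as bars and calls at an adjusted p under 0.05 in colour. The box over all genes spans percentiles 25 to 75 and its whiskers percentiles 5 to 95. The medians were 0.42 for the 9 genes, 0.70 for ATF4 and the eIF2alpha genes, and -0.25 for proline and ornithine.

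Across 18 other ways of processing or choosing the arrays, PSAT1 lay between 0.70 and 1.14 and passed the test in 17, and MTHFD2 lay between 0.54 and 1.38 and passed in 17. GPT2 was fitted in 17 of them and passed in 16, and PSPH passed in 16 of 18, with values from 0.13 to 0.72. PHGDH passed in 13 and SHMT2 in 8 of 18, and all their values were above 0. ALDH18A1 passed in 2 as lower, PYCR1 in 1 of 14 as higher, and SHMT1 in none. Not all of these ways were free to move a ratio. Each gene had 1 probe, so averaging the probes of a gene left its ratio as it was. A stricter threshold, an intensity-dependent prior, array weights and other filters on dim probes also left the fitted ratios unchanged. The processed signals and the series table gave nearly the same ratios, 0.963 for PSAT1 in both.

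**Figure D5:**
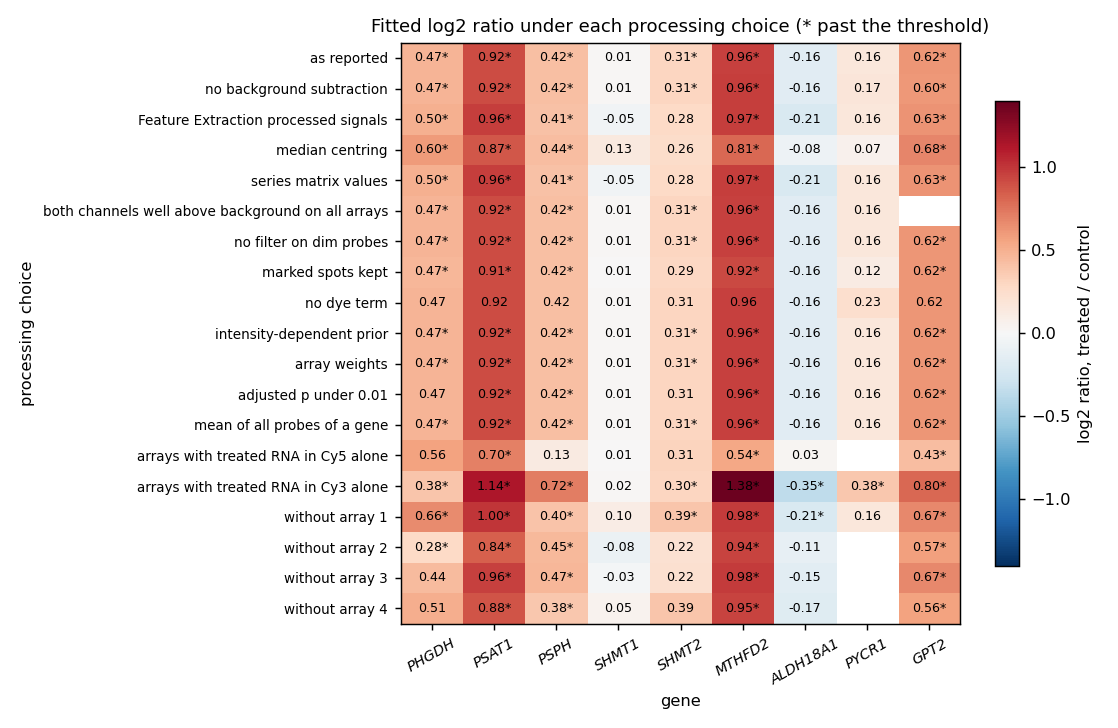
Fitted log2 ratio of treated over control cells (colour scale and printed value) of each of the 9 tested genes (columns) under the reported processing and each alternative (rows), with a star where the gene passed the threshold. PSAT1 and MTHFD2 lack a star in 1 alternative, the fit without the dye term, whereas SHMT2 has a star in 8 of the 18 alternatives.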

How the data were processed

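RNA of AC-1041-treated (4 h) and control K562 cells was measured on 4 two-colour arrays, 2 in each dye orientation. The authors quantified the images with Feature Extraction 9.5.1.1 and deposited each spot's intensity and local background in both channels without normalization, together with processed intensities corrected for background and dye. A deposited series table holds log10 ratios. They lay within 0.001 of the array files' ratios for 99.9% to 100% of the values of an array, with the sign turned on arrays 3 and 4, and so read treated over control.

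Background was corrected with normexp (offset 50), control spots were dropped, and each array was normalized by loess (span 0.3). Spots that the scanner software marked (non-uniform, or population outlier) were dropped. A probe entered the main fit if at least 2 arrays had it well above background in either channel and at least 3 arrays had its spot unmarked. limma 3.58.1 (R 4.3.3) fitted the treatment together with the dye orientation, and p-values were adjusted by Benjamini-Hochberg over 8852 probes. The standard errors therefore rest on differences between arrays of the same orientation, and SDs are over all arrays. Where the spot on 1 array was dropped (n = 3), the 1 array left in that orientation weighed as much as the other 2 together. The fitted value of such a gene is not the plain mean of its 3 ratios, around which the SD is taken. Its own spread in the test comes from the 2 arrays of the other orientation alone. For the normalized intensities per channel, the average log intensity of the channels was given the same distribution on every array (Aquantile). A gene was represented by its brightest probe. A RefSeq table of GRCh38.p14 named 12002 of 14297 probes and the rest kept their deposited names. Coordinates of probes are as deposited, on hg18.

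The genes and lists were chosen with earlier results of these data known. All 10 genes, ATF4 and, of each list, up to 4 genes past the threshold in each direction were named, and some results are not reported here. The fit was tested on simulated data with independent errors for each array and the same treatment and dye terms. That simulation did not cover array quality that goes with orientation, or arrays that are technical repeats. The number of arrays limits the precision. All 4 arrays were on 1 slide and scanned on 1 day, so neither could be a block.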

Additional observations from a re-analysis of the deposited data

Results flagged for a closer look

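SESN2 was flagged among 24 genes looked at, because 1 array lay far from the other three. Its log2 ratios were 0.97, 1.91, 0.79 and 0.98 on arrays 1 to 4, and the gap of array 2 to the nearest array was 0.836 of the whole range. Chance flags about 1 in 20 such groups.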

How the results depend on the processing

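PSAT1, PHGDH, PSPH, SHMT2, MTHFD2 and GPT2 kept a ratio above 0 under every alternative in which they were fitted. Over the 9 tested genes, 129 results under an alternative kept their direction and their side of the threshold, 20 lost the call, 3 gained one and 5 changed sign. These counts include alternatives that left the ratios as they were, such as averaging the probes of a gene or a stricter threshold. The number of the 9 genes called higher was 6 as reported, 0 without the dye term, 3 on the arrays with the treated RNA in Cy5 alone and 4 to 6 with an array left out. The number called lower was 1 without array 1 and 1 with the treated RNA in Cy3 alone, and 0 to 1 over the arrays left out. The dye term was passed by 2 genes with the processed signals of Feature Extraction, 2 with the series table, 2 at an adjusted p under 0.01 and 1 to 5 with an array left out. Over the 4 lists the genes called higher numbered 11 with both channels above background on all arrays, 3 without the dye term, 10 in Cy5 alone, 29 in Cy3 alone and 11 to 18 with an array left out. Those called lower numbered 5 with median centring, 0 without the dye term, 4 at an adjusted p under 0.01 and 1 to 10 with an array left out. The median of the lists was 0.22 in Cy3 alone. SHMT1 changed sign to -0.0513 with the processed signals, to -0.0512 with the series table, to -0.077 without array 2 and to -0.03 without array 3. GLUL was at 0.044 without the dye term and at 0.70 in Cy3 alone, ALDH18A1 at 0.032 and MTHFD2L at -0.16 in Cy5 alone, and GCSH at 0.10 and ADSS2 at 0.15 in Cy3 alone. Apart from the smaller number of arrays, genes or a stricter threshold where these define the alternative, the cause was not tested. GPT2 was not fitted when both channels had to be above background, nor PYCR1 without array 2, 3 or 4 or in Cy5 alone. Median centring raised the share of higher among all calls from 65.2% to 79.8%, and the processed signals lowered it to 57.9%. No paired analysis was possible because the labels give 1 group of ratios, with no second group that shares its replicate numbers, and each ratio already pairs treated and control RNA on 1 array. Signal over background limits ASNS, GPT2 in the control channel, and MTHFD2L, ALDH1L2 and AMT in both channels.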

Other observations

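A probe for LOC732249, annotated in the files as similar to PSAT1 and singled out after its values had been seen, had log2 ratios of -0.42, -0.24, 1.27 and 1.38 on arrays 1 to 4. Its fitted value was 0.50 ± 0.96 (SD, n = 4, limma adjusted p = 0.00084), and on 3 of 4 arrays each channel was well above background. Cross-hybridisation between the transcripts of this gene and PSAT1 was not tested.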
